A study of Mus musculus with 2 samples.

Results

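The antizymes and the enzymes they control form a small circuit that sets the level of polyamines, here followed through 9 genes in the left cerebral cortex of the mouse. The genes were chosen by name, and all 9 (Oaz1, Oaz2, Odc1, Azin1, Azin2, Amd1, Sat1, Srm and Sms) had reads in both libraries, out of 18907 annotated genes with any read. They held 128 transcript models with 3191 reads in replicate 1 and 122 models with 3536 reads in replicate 2. The study sequenced RNA from left cerebral cortex of adult mice of the strain B6NCrl, aged 6 months, as long reads. It has a single group of 2 libraries, labelled biological replicates 1 and 2, and no treatment or genotype. A long read follows a cDNA molecule over many exons, so that its chain of introns can be set against the annotated transcripts. Both tissue samples share a single donor record in the labels, and separate animals are not stated, so every p-value below compares 2 libraries against counting noise and may describe technical spread.

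Polyamines are small positively charged molecules that bind nucleic acids, and in the brain they also modulate ion channels and glutamate receptors. Ornithine decarboxylase, the product of Odc1, makes putrescine. The decarboxylase encoded by Amd1 supplies the aminopropyl groups with which spermidine synthase (Srm) and spermine synthase (Sms) build the larger polyamines. Antizymes (Oaz1, Oaz2) bind ornithine decarboxylase and send it to the proteasome, the antizyme inhibitors (Azin1, Azin2) bind the antizymes, and the acetyltransferase encoded by Sat1 marks polyamines for export or breakdown. Translation of a full antizyme needs the ribosome to skip the first base of a stop codon, a shift that polyamines themselves promote. Gene annotations can write such a shift as a gap of a base or more between a pair of exon pieces.

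The frameshift site itself is printed here because the results on Oaz1 and Oaz2 turn on it. In the sequences below, read 5′ to 3′ from the GENCODE M21 transcripts, capitals mark the last codon of the first frame (TCC) and the stop codon (TGA), or what the annotation leaves of them. The Oaz1 window lies in a coding exon at chr10:80828271-80828318 and the Oaz2 window in a coding exon at chr9:65686248-65686295, both in mm10 on the plus strand.
Oaz1-205, no base left out: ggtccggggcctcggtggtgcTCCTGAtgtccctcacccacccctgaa
Oaz1-207, 1 base left out: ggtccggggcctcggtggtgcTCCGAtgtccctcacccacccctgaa
Oaz1-201, 4 bases left out: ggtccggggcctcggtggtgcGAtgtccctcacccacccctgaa
Oaz2-203, no base left out: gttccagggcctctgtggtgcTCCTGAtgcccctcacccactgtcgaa
Oaz2-206, 1 base left out: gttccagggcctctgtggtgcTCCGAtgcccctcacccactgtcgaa
Oaz2-201, 4 bases left out: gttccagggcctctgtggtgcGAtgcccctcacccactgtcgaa
The base left out of Oaz1-207 and Oaz2-206 is the T of TGA, and the 4 bases left out of Oaz1-201 and Oaz2-201 are TCCT. With the base put back, the Oaz1 reading frame ran for 68 codons from its ATG and stopped at this TGA. A shift by 1 base there opened a further 159 codons, 227 in all, the same number as in the gapped annotation. In Oaz2 the first frame held 32 codons and the shifted frame 157, which make 189 together.

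Each library had about the same depth, with 1306424 reads in replicate 1 and 1304133 in replicate 2, so that 1 read was worth 0.765 and 0.767 CPM (reads scaled to a library total of 1000000). The limit that a count of 0 allows, taken as 3 reads, was 2.30 CPM in both libraries. Markers of excitatory and inhibitory neurons, astrocytes, oligodendrocytes, microglia and endothelial cells were all detected in both libraries. A free-text label calls the tissue male, whereas the sex field says only that it was not collected. In the 4 Y-linked genes examined there were 0 reads in both libraries, while the X-inactivation RNA Xist had 29 reads in replicate 1 and 27 in replicate 2. Sat1 and Sms lie on the X chromosome, and no library without this mismatch was at hand to compare them with. Across the genome, 835 of 11838 genes with at least 10 reads in both libraries together, or 7.05%, differed between the libraries at a Benjamini-Hochberg adjusted p under 0.05 in an exact two-sided binomial test and by at least 2-fold. Of these, 644 (5.44%) were higher in replicate 1 and 191 (1.61%) higher in replicate 2.

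Oaz1 was by far the best covered of the 9 genes. Its 2078 reads in replicate 1 and 2536 in replicate 2 amounted to 1591 and 1945 CPM, a mean of 1768 ± 250 CPM (SD, n = 2). That put it at rank 33 of the 18907 genes by mean CPM. Oaz1 held 65.1% and 71.7% of the reads of all 9 genes, whose summed level was 2443 CPM in replicate 1 and 2711 CPM in replicate 2 (mean 2577 ± 190). Oaz2, the second broadly expressed antizyme, had 445 and 459 reads, or 346 ± 8.01 CPM (SD, n = 2). The ratio of Oaz1 to Oaz2 reads was 4.67 in replicate 1 and 5.53 in replicate 2. Oaz3, the antizyme known from the testis, had 0 reads in both libraries.

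The other members lay well below both antizymes in CPM. Srm, which turns putrescine into spermidine, had 143 and 109 reads, or 96.5 ± 18.3 CPM. Sat1, the acetyltransferase of polyamine breakdown, had 104 and 136 reads, or 91.9 ± 17.4 CPM. Sms, which makes spermine, had 117 and 74 reads, or 73.2 ± 23.2 CPM. Amd1, the decarboxylase that feeds both synthases, had 55 and 114 reads, or 64.8 ± 32.0 CPM. Odc1, the first enzyme of the pathway, had 147 reads in replicate 1 against 20 in replicate 2 (63.9 ± 68.7 CPM). Azin1 and Azin2, the antizyme inhibitors, had 57 and 78 reads (51.7 ± 11.4 CPM) and 45 and 10 reads (21.1 ± 18.9 CPM). In this order of mean CPM, Oaz1 and Oaz2 stood clear of each other and of Srm in both libraries. The ranges of Srm and Sat1, of Sat1 and Sms, of Sms and Amd1, of Amd1 and Odc1, and of Odc1 and Azin1 each overlapped, so these neighbours did not differ beyond the spread of the 2 libraries. Azin2 lay below Azin1 in both.

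A long read counts a molecule once whatever its length, so a level per kilobase is another scale and not a correction. All reads of a gene were divided by the full length of its main annotated transcript, whatever part they covered. On that scale the top of the order stayed alike. Oaz1 had 1693 ± 240 CPM per kilobase (SD, n = 2) and Oaz2 188 ± 4.35. Sat1 (79.1 ± 15.02 CPM per kilobase) and Srm (72.1 ± 13.7) followed, now in the other order and with overlapping ranges. Odc1 had 29.0 ± 31.1, Amd1 20.2 ± 10.001, Sms 19.7 ± 6.24, Azin1 10.6 ± 2.35 and Azin2 10.2 ± 9.18 CPM per kilobase. On this scale the ranges of Srm and Odc1 and of Sms and Azin1 did not overlap.

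**Figure D1:**
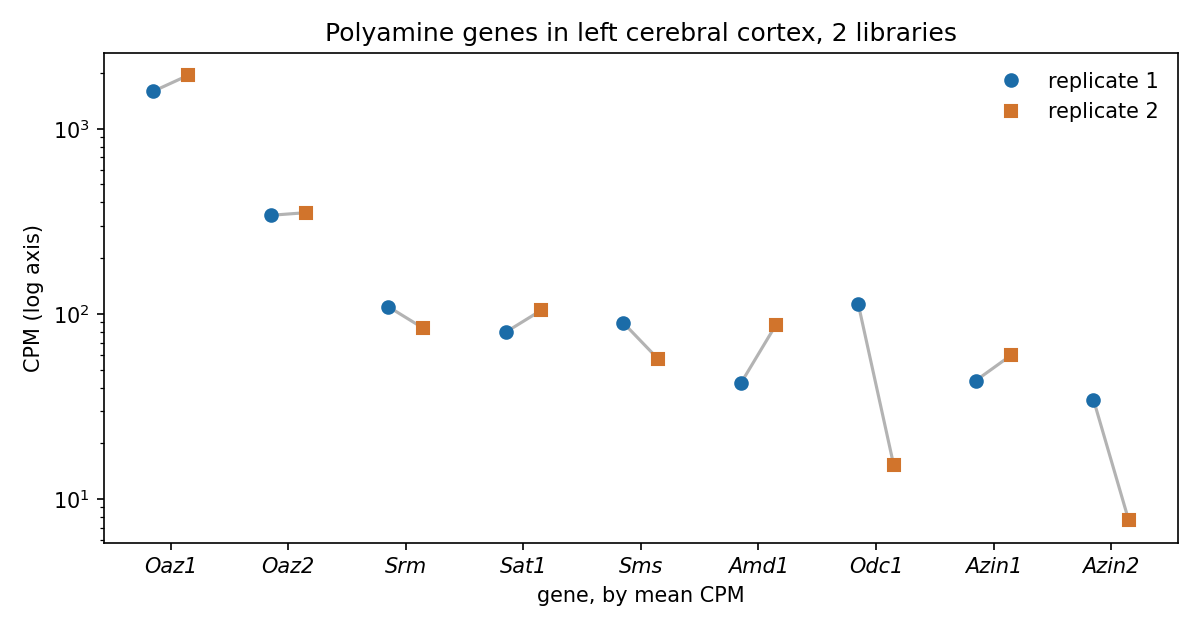
Level of each gene in CPM on a log axis, 1 point per library, circles for replicate 1 and squares for replicate 2, ordered by mean CPM. Oaz1 lies at 1591 and 1945 CPM, and Odc1 shows the widest gap between the libraries, with 113 CPM in replicate 1 and 15.3 CPM in replicate 2.

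Of the 9 genes, 3 differed between the libraries by the rule above, beside 7.05% of all genes tested. Odc1 was 7.34-fold higher in replicate 1 (exact 95% interval 4.58 to 12.4; log2 ratio of replicate 1 over replicate 2, with 0.5 reads added, 2.84; adjusted p = 4.31e-23). Azin2 was 4.49-fold higher in replicate 1 (interval 2.23 to 9.997; log2 ratio 2.11; adjusted p = 4.57e-05 in the same exact binomial test). Amd1 was 2.08-fold higher in replicate 2 (interval 1.49 to 2.92; log2 ratio of replicate 1 over replicate 2, -1.05; adjusted p = 9.96e-05, exact). So the decarboxylases at the head of the pathway, Odc1 and Amd1, stood in opposite directions in the same pair of libraries. In bulk tissue, fewer cells of a type and less RNA per cell cannot be told apart.

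Oaz1 was 1.22-fold higher in replicate 2, a difference below the 2-fold limit that was beyond counting noise (log2 ratio -0.29, adjusted p = 4.32e-10, exact binomial test). Sms was 1.58-fold higher in replicate 1 (log2 ratio 0.65, adjusted p = 0.0220, exact), likewise under 2-fold. Among all genes tested 12.8% passed the same adjusted p at any size. For Oaz2, Azin1, Sat1 and Srm the adjusted p was 0.882, 0.278, 0.185 and 0.181 in the exact test. The exact interval of the ratio of replicate 1 over replicate 2 ran from 0.848 to 1.11 for Oaz2, from 0.509 to 1.04 for Azin1, from 0.586 to 0.993 for Sat1 and from 1.01 to 1.70 for Srm.

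Base composition differed between the genes called in either direction, and marker lists differed between the libraries in both directions. The richest 100 bases of the main transcript reached 86% G and C in Odc1 and 81% in Azin2, and 56% in Amd1. The median of that value was 83% over the genes higher in replicate 1, 69% over those higher in replicate 2 and 73% over all genes tested. Srm and Sms, at 85% and 84%, did not reach a 2-fold difference. The summed level of 2 red blood cell markers was 29.9 CPM in replicate 1 and 9.20 CPM in replicate 2. That of 2 choroid plexus markers was 57.4 and 36.0 CPM, and that of 4 excitatory neuron markers 954 and 732 CPM. Oligodendrocyte markers, at 4038 and 3753 CPM, were also higher in replicate 1. Higher in replicate 2 were markers of inhibitory neurons (231 and 284 CPM), endothelial cells (173 and 204), astrocytes (2383 and 2481) and microglia (344 and 357). The part of these in the differences of Odc1, Azin2 and Amd1 was not tested.

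Beyond the amount, Odc1 reads also differed in form. The full-length transcript Odc1-201, with 12 exons, took 112 of 147 reads in replicate 1 and 2 of 20 in replicate 2. Reads that began inside the gene and ran to its 3′ end numbered 17 of 147 in replicate 1 and 12 of 20 in replicate 2. Over all annotated genes, reads of this kind made up 6.61% in replicate 1 and 7.73% in replicate 2. The first intron of Odc1 was spliced in 125 reads of replicate 1 and 3 reads of replicate 2, and its last intron in 142 and 17. Of the reads that spliced the last intron, 122 of 142 (85.9%) also spliced the first in replicate 1 and 3 of 17 (17.6%) in replicate 2. In Azin2 it was 17 of 37 and 1 of 5 reads, in Amd1 28 of 39 and 81 of 90, and in Srm 111 of 137 (81.0%) and 71 of 99 (71.7%). The share was 92.3% and 86.7% for Sat1, 97.9% and 97.6% for Oaz1 and 93.7% and 93.4% for Oaz2. In Azin1 it was 17 of 18 and 20 of 25 reads, and in Sms 13 of 17 and 10 of 14. These shares were compared without a test.

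**Figure D2:**
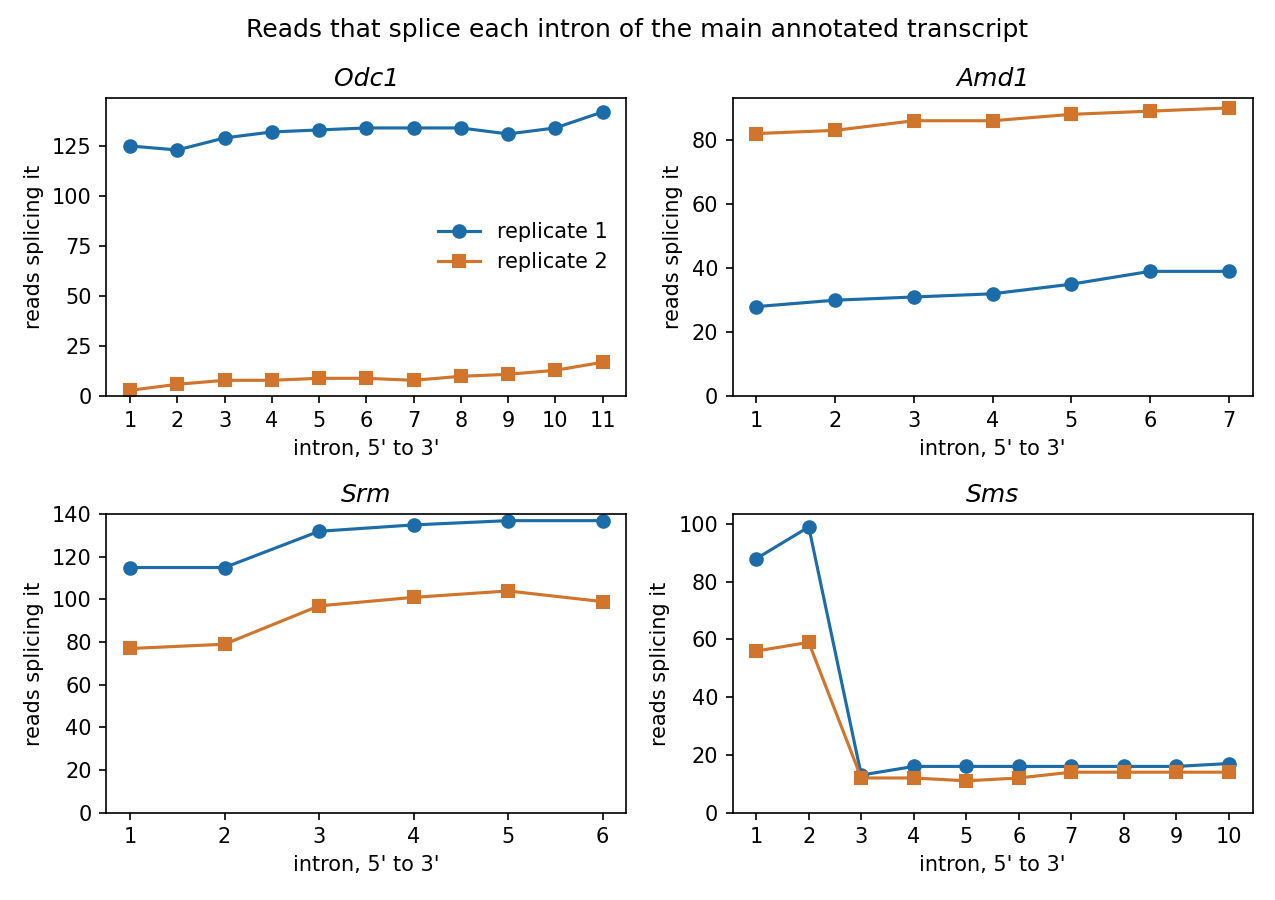
Number of reads that splice each intron of the main annotated transcript, from the 5′ to the 3′ end, with circles for replicate 1 and squares for replicate 2, in Odc1, Amd1, Srm and Sms. Odc1 in replicate 2 climbs to 17 reads at the last intron against 3 at the first, and Sms drops after the second intron, to 13 reads in replicate 1 and 12 in replicate 2.

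The class in which the reads were filed set the antizymes apart most. Models in the deposited files are known where their chain of introns equals an annotated transcript, incomplete splice matches where they hold part of such a chain, new in catalog where they join annotated splice sites in another way, new not in catalog where they use an unannotated site, and genomic for other models inside a gene, of which all 9 in replicate 1 and 9 of 10 in replicate 2 were unspliced for these genes. For all annotated genes together, 71.9% of reads in replicate 1 and 67.7% in replicate 2 lay on known transcripts. For Oaz1 the number was 0 of 2078 and 0 of 2536 reads, and for Oaz2 0 of 445 and 0 of 459. Instead, 2014 and 2461 Oaz1 reads and 383 and 386 Oaz2 reads were filed as new in catalog. Of the 4224 genes with at least 100 reads in both libraries together, 136 (3.22%) had no read on a known transcript, and by number of reads Oaz1 ranked first and Oaz2 sixth among these. The median share of known reads over those 4224 genes was 72.3%. The antizymes were chosen with these values in view, so they are given without a test.

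**Figure D3:**
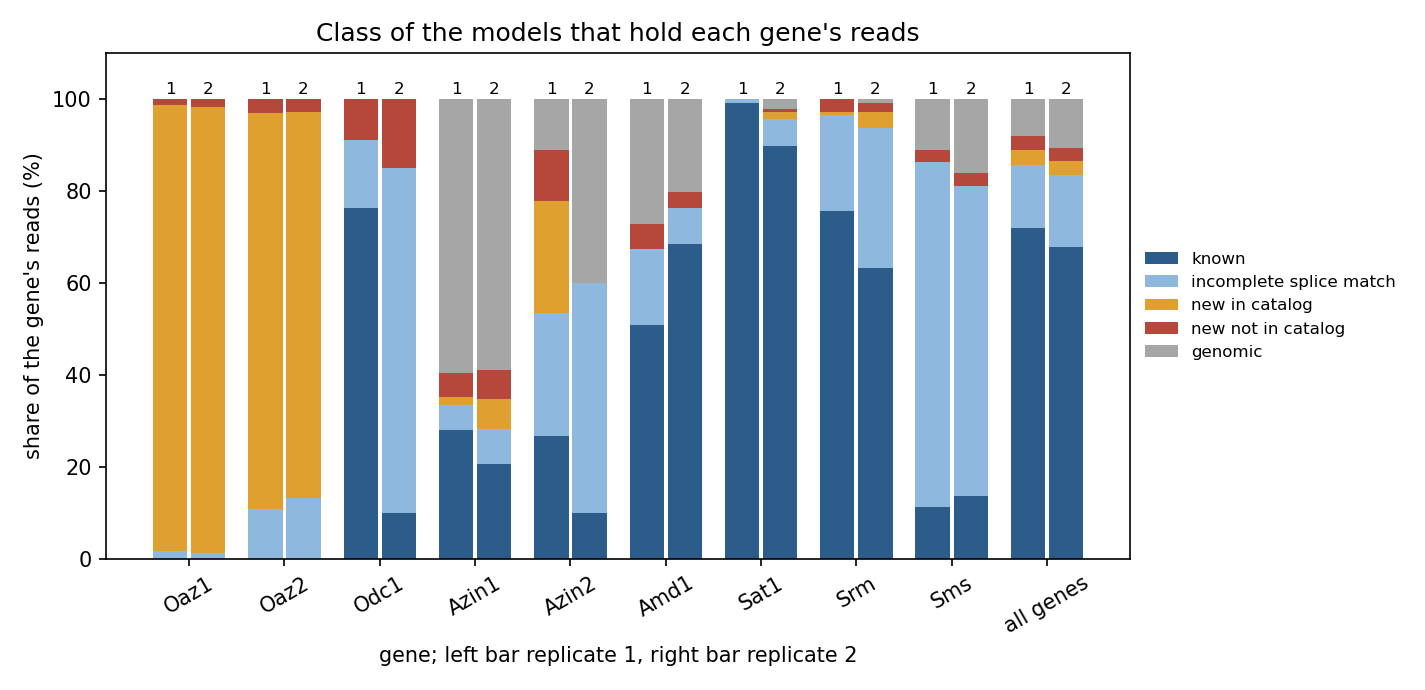
Share of each gene's reads (in percent) by the class of their model, with replicate 1 as the left bar and replicate 2 as the right bar of each pair, and all annotated genes at the right end. Oaz1 and Oaz2 have no known segment, Sat1 is almost wholly known, and genomic reads make up most of Azin1, 59.6% in replicate 1 and 59.0% in replicate 2.

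A single chain of 5 exons led each antizyme. In Oaz1 it took 1964 reads in replicate 1 (94.5%) and 2398 in replicate 2 (94.6%), and in Oaz2 370 (83.1%) and 380 (82.8%). In their introns these chains differ from Oaz1-207 and Oaz2-206, annotated with 6 exons, only in that the exon with the frameshift site is whole. That exon is 146 bases long in Oaz1 (chr10:80828237-80828382) and 158 bases in Oaz2 (chr9:65686196-65686353). Of the annotated transcripts, 4 of 7 in Oaz1 and 3 of 7 in Oaz2 carry a gap at the sites printed above. The gap is a single base at chr10:80828295 in Oaz1-202, Oaz1-203 and Oaz1-207 and 4 bases from chr10:80828292 in Oaz1-201. Oaz1-205, which has the exon whole, starts from another first exon and had 0 reads in both libraries.

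Nearly all reads that reached both sides of the gap lay on models whose exon ran straight across it. In Oaz1, 2054 of the 2062 reads that reached both sides lay on a model with an unbroken exon in replicate 1 (99.6%, exact 95% interval 99.2 to 99.8) and 2514 of 2524 in replicate 2 (99.6%, 99.3 to 99.8). In Oaz2 it was 408 of 408 reads in each library (100%, lower bound 99.1). No read lay on a model with the gap, which allows a share of up to 0.145% and 0.119% in Oaz1 and 0.735% in Oaz2 in either library. The remaining Oaz1 reads, 8 in replicate 1 and 10 in replicate 2, lay on models with no exon across the gap. An intron spanned the whole 146-base exon in 8 reads of replicate 1 and 9 of replicate 2. These limits cover counting error only, and they hold for models as deposited, in which a missing base inside a read would not be shown.

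**Figure D4:**
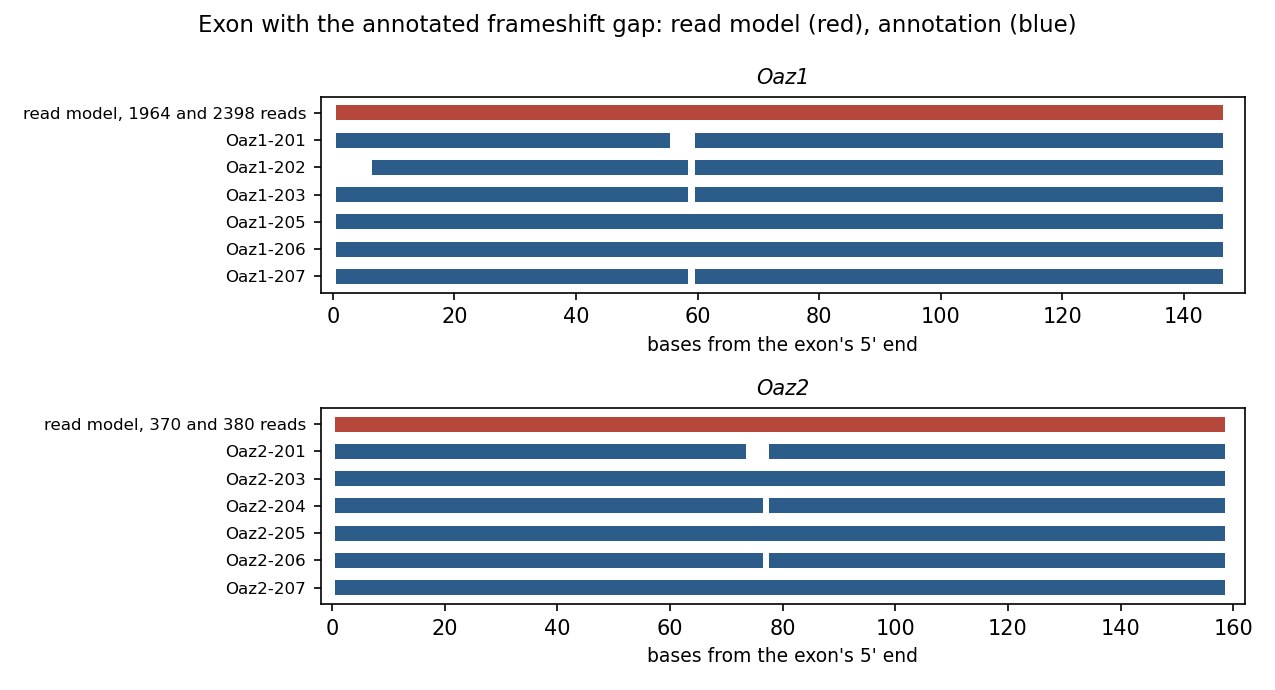
The exon that holds the frameshift site in Oaz1 (top) and Oaz2 (bottom), drawn to scale in bases from its 5′ end, with the leading read model in red and each annotated transcript that overlaps the exon in blue. The read models are whole over 146 and 158 bases, while the annotated transcripts with a gap break after base 58 or 55 in Oaz1 and after base 76 or 73 in Oaz2.

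When annotated gaps of up to 10 bases were closed before the chains were compared, 1985 of 2078 Oaz1 reads in replicate 1 (95.5%) and 2432 of 2536 in replicate 2 (95.9%) lay on an annotated chain. In Oaz2 it was 371 of 445 (83.4%) and 380 of 459 (82.8%). Such short gaps occur in 242 annotated genes, of which 46 had at least 10 reads and 12 at least 100. Over both libraries together, 4 of these 46 genes gained more than 10 percentage points by this step, Oaz1, Oaz2 and, named here after their values were seen, Nadk2 and Ankzf1. Nadk2, a mitochondrial kinase of NAD, had 74.6% in replicate 1 and 41.2% in replicate 2 with gaps closed (of 63 and 34 reads), against 20.6% and 11.8% as deposited. Ankzf1 had 31.8% and 45.5% with gaps closed (of 22 and 11 reads), against 18.2% in both as deposited. In the 5 genes of most reads outside the members the step changed the share by less than 3 percentage points. Cfl1 (cofilin, an actin-severing protein) stayed at 92.4% and 84.6% known, Tmem134 at 82.1% and 82.3% and Pitpna at 0% in both. Mpc1, a subunit of the mitochondrial pyruvate carrier, had 5.06% in replicate 1 and 4.86% in replicate 2 with gaps closed, against 2.76% and 3.50% as deposited. Dmtn, an actin-binding protein, had 2.36% and 0.893% with gaps closed, against 0% in both as deposited.

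**Figure D5:**
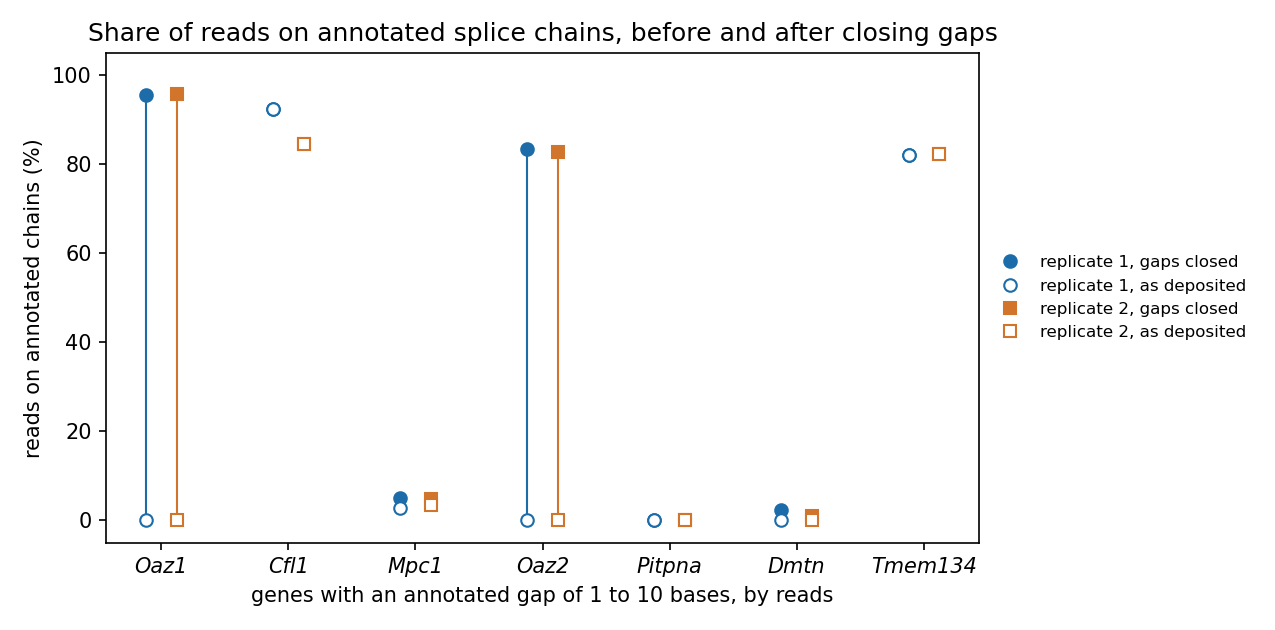
Share of reads on annotated splice chains (in percent) for the 7 genes of most reads that have an annotated gap of 1 to 10 bases, circles for replicate 1 and squares for replicate 2, filled with gaps closed and open as deposited (an open symbol hides a filled one of the same value). Only Oaz1 and Oaz2 among these 7 move by more than 3 percentage points.

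Around that shared chain the splicing of the antizymes varied little. In Oaz1 the exon with the frameshift site began 6 bases further in, at an annotated splice site, in 22 of 2053 reads of replicate 1 (1.07%) and 32 of 2515 of replicate 2 (1.27%). An unannotated splice donor 4 bases beyond the usual end of the fourth exon was used in 24 of 2069 reads (1.16%) and 31 of 2533 (1.22%). In Oaz2 an unannotated acceptor 3 bases into the frameshift exon was used in 12 of 407 reads (2.95%) and 12 of 404 (2.97%). The next to last exon of Oaz2 was skipped in 11 reads of replicate 1, beside 391 that included it, and in 5 of replicate 2, beside 405. Unspliced models of the last exon of Oaz2 held more, 27 of 445 reads in replicate 1 and 41 of 459 in replicate 2. Incomplete matches of all kinds made up 10.8% and 13.1% of Oaz2 reads, against 1.68% and 1.10% in Oaz1. Of all splice junctions in Oaz1 reads, 99.5% in replicate 1 and 99.4% in replicate 2 were annotated, beside 98.8% in each library over all annotated genes. For the 9 genes this share ran from 95.3% (Odc1 in replicate 2, of 107 junctions) to 100% (Sat1 in replicate 1, of 503).

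Reads of Sat1 showed its known alternative exon at a low share. The exon of 110 bases (chrX:155215121-155215230, minus strand) belongs to Sat1-207, a transcript annotated for nonsense-mediated decay, and the exon is known to be skipped when polyamines are plentiful. Its first bases are shown because they end the reading frame, with the stop codon in capitals, at chrX:155215217-155215230 on the minus strand.
Sat1 alternative exon, first 14 bases: gttacagtctcTAG
Read from the start codon of Sat1-201, the frame stopped after 71 codons with the exon and after 171 codons without it. The exon was included in 5 of 97 reads of replicate 1 that could show it (5.15%, exact 95% interval 1.69 to 11.6) and in 3 of 117 of replicate 2 (2.56%, 0.532 to 7.31). The intervals overlap widely, and with 5 and 3 reads no difference was detectable at this depth. The rest of the Sat1 reads were 7 and 16 that did not reach the exon, 2 in replicate 2 that ran unspliced across it and 1 in replicate 2 in another form.

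Sat1 was otherwise the most completely annotated of the 9 genes, with 103 of 104 reads (99.04%) and 122 of 136 (89.7%) on known transcripts. Sat1-201, the main coding transcript, held 91 of the 103 known reads in replicate 1 (88.3%, exact 95% interval 80.5 to 93.8) and 106 of the 122 in replicate 2 (86.9%, 79.6 to 92.3). This difference did not pass Fisher's exact test (p = 0.840, adjusted p = 1). Sat1 was the only member with at least 20 known reads in each library spread over more than 1 known transcript, and 45 of the 2572 genes tested (1.75%) passed. When incomplete matches were counted as further chains, 6 members could be tested and 0 passed at an adjusted p under 0.05 (lowest for Amd1, p = 0.0538 and adjusted p = 0.249, Fisher's exact test), beside 605 of 4900 genes (12.3%). Sat1-205, which keeps an intron, had 7 and 12 reads, and Sat1-202, also annotated as coding, had 0 and 3.

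The remaining enzymes had mostly a single full-length form. Srm-201 took 108 of 143 reads (75.5%) in replicate 1 and 69 of 109 (63.3%) in replicate 2, and most other reads began further inside the gene. Amd1-201, with 8 exons, held 28 of 55 reads (50.9%) and 78 of 114 (68.4%), and genomic models near the 3′ end a further 15 and 23. Amd1 has an intronless copy, Amd2, whose annotated transcript matches 3202 of its 3204 bases at 99.6% identity, and Amd2 had 4 and 7 reads. How the reads of such copies were divided between them cannot be seen in the counts. The same holds for Oaz1-ps, a processed pseudogene that matches Oaz1-207 over 685 bases at 99.7% identity and had 27 reads in replicate 1 and 41 in replicate 2, and for Sms-ps, with 100% identity over 1101 bases and 10 and 8 reads. Oaz2-ps had 2 and 3 reads and Amd-ps3 5 and 1, while Amd-ps1, Amd-ps4, Amd-ps5 and Amd-ps6 had 0 in both. Odc1 matches 14 annotated genes over at least 200 bases at an identity of 97.8% or less, and 3 of these had reads, 11 in replicate 1 and 12 in replicate 2.

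Most Sms reads were filed on models that stop early in both libraries. A chain of the first 3 exons led the gene with 75 of 117 reads (64.1%) in replicate 1 and 46 of 74 (62.2%) in replicate 2, while Sms-201 with its 11 exons had 13 and 10. The second intron was spliced in 99 and 59 reads and the third in 13 and 12, and the later introns held 16 to 17 reads in replicate 1 and 11 to 14 in replicate 2. The 3-exon models are listed as ending at chrX:157466398, which is the end of an exon in 4 annotated transcripts and the end of none. In the deposited models, 94.9% of member model ends in replicate 1 and 93.0% in replicate 2 sit on an annotated exon border (85.5% and 85.0% over all annotated genes), so the listed end need not be where the reads ended. Among the 4224 genes with at least 100 reads, 208 (4.92%) were led by an incomplete match to the first part of an annotated chain. Such a chain need not stop before the 3′ end of its gene.

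The antizyme inhibitors were thinly covered, and most of their reads lay on no known transcript. In Azin1, 23 of 57 reads (40.4%) and 32 of 78 (41.0%) were spliced, of which Azin1-201 took 14 and 15. A further 29 and 40 reads lay on a model listed with a length of 4 bases (chr15:38488238-38488241), between the annotated 3′ ends of Azin1-203 and Azin1-205. Models listed with under 50 bases held 4426 reads in replicate 1 and 6070 in replicate 2 over the whole table. An internal exon of Azin1 (chr15:38507187-38507346) was included in 1 of 20 reads and 2 of 26. In Azin2, Azin2-201 had 12 of 45 reads in replicate 1 and 1 of 10 in replicate 2, and an internal exon at chr4:128959784-128959957 was included in 23 of 34 reads and 2 of 2.

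Of 29 further genes around the pathway, 18 had enough reads to test and 0 differed between the libraries by the 2-fold rule in the exact binomial test, beside 7.05% of all genes. At an unadjusted p under 0.05 there was 1, Eif5a, with 1025 reads in replicate 1 and 898 in replicate 2 (log2 ratio 0.19, adjusted p = 0.0368, exact). Eif5a encodes the translation factor that carries hypusine, an amino acid made from spermidine, and at 785 and 689 CPM it was the best covered of the list. The enzymes that make hypusine had 85 and 77 reads (Dhps) and 249 and 287 reads (Dohh), and the second factor, Eif5a2, 11 and 18. Of the supply of S-adenosylmethionine, Mat2a had 171 and 187 reads and Mat2b 262 and 285, while Mat1a, the liver form, had 0.

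Genes of polyamine breakdown and transport were sparse in comparison with the antizymes. The oxidases Smox and Paox had 26 and 21 reads and 13 and 13 reads, and Sat2, a relative of Sat1, had 13 and 11. Of the transporters, Slc3a2, the heavy chain of amino acid exchangers, had 234 and 228 reads and Atp13a2, a lysosomal polyamine exporter, 82 and 61. Atp13a3 had 6 and 13, Slc18b1, a vesicular polyamine transporter, 9 and 4, Slc7a1 6 and 5 and Slc7a2 7 and 8. Agmat had 11 and 17 reads and Mtap, which salvages the by-product of both synthases, 13 and 18. The median log2 ratio over the 18 tested genes was -0.06 and over the 9 members -0.05, beside 0.00 over all genes tested. In 5 of the 29 genes no read was found in either library, and 6 had 1 to 9 reads in both together.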

How the data were processed

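Long-read RNA-seq libraries of mouse left cerebral cortex were analysed from the deposited transcript tables and gene models (mm10 and GENCODE M21, per the file headers). Per the file headers, the authors deposited whole-number read counts per transcript model, with the gene, class, exon number and length of each model as TALON lists them; neither the aligner nor its settings are given in the sources used here. Counts were summed per gene and scaled to a library total of 1000000 (CPM) from all reads (1306424 and 1304133). Genes with at least 10 reads in both libraries together were compared with the library totals in an exact binomial test (two-sided), 0.5 reads being added for the log2 ratio only, and p-values were adjusted by Benjamini and Hochberg over 11838 genes. Leading known transcripts were compared with Fisher's exact test (at least 20 known reads in each library). With 1 group of 2 libraries no residual degrees of freedom remain for edgeR 4.0.16 or DESeq2 1.42.0, which gave only normalization factors. Shares carry Clopper-Pearson intervals (95%), which cover counting error only. Annotated gaps of 1 to 10 bases were found and closed in the models. All 57 member transcripts had the same exons in the reference annotation. Near copies were sought with blastn 2.17.0. The tests were checked on simulated data. The members, lists and comparisons were chosen with earlier results of these data known. Named are all 9 members, genes of the pathway list with at least 10 reads, copies named after members and the 5 genes of most reads with such gaps; genes of that list with fewer reads are named only where their reads are 0. Python 3.11.15, scipy 1.17.1 and R 4.3.3 were used.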

Additional observations from a re-analysis of the deposited data

How the results depend on the processing

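The 3 members that differed between the libraries (Odc1, Azin2 and Amd1) were called under every alternative tried (DESeq2 or TMM normalization, totals without mitochondrial reads, no filter or at least 20 reads, known and incomplete matches only, no genomic models), and a fold limit of 1.5 added Sms. Their log2 ratios of replicate 1 over replicate 2 ranged from 2.82 to 2.94 for Odc1, 1.91 to 2.64 for Azin2 and -1.22 to -1.02 for Amd1. On known and incomplete matches alone the Oaz1 ratio changed sign without a call, from the few reads left (35 and 28), and the summed level of the 9 genes was 441 CPM, since nearly all antizyme reads are filed as new in catalog. Leaving out a library gave 2443 to 2711 CPM. The share of Oaz1 reads on known transcripts stayed at 0 (0 to 0 without either library) and was 95.7% with annotated gaps closed, an alternative chosen after seeing the data. Exon shares across the gap ranged from 99.6% to 99.6% in Oaz1 and 100% to 100% in Oaz2, and Sat1 exon inclusion from 2.56% to 5.15%, without either library. In Sat1, counting known transcripts only gave 5.21% and 0.909%. The leading transcript's share differed in 0 of 1 member tested (Sat1) on known transcripts and in 0 of 6 with incomplete matches added. With at least 50 known reads in each library it was again 0 of 1 (Fisher's exact test in each setting). Odc1, Azin1 and Azin2 could not be tested in any of these settings. The whole-table count of genes that differ was 758 to 1174 beside 835. No paired analysis was possible because both libraries belong to the same group. Few reads lie behind Odc1 and Azin2 in replicate 2 (20 and 10) and behind the Sat1 exon (5 and 3).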

Other observations

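Reads on the strand opposite to a member were few and all lay in genes that the models added to the annotation. They numbered 6 in replicate 1 and 4 in replicate 2 over Sat1, 4 and 6 over Azin1, 2 and 5 over Azin2, 2 and 1 over Sms and 0 and 1 over Amd1.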
